A study of Sus scrofa with 8 samples.

Results

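Keratins are the proteins of the intermediate filaments of epithelial cells. Each filament is built from pairs of a type I (acidic) and a type II (basic or neutral) keratin, and in mammals the genes of each type lie side by side in a cluster, with KRT18, a type I gene, placed at the end of the type II cluster. Simple, single-layered epithelia use KRT8 with KRT18 or KRT19, stratified epithelia use pairs such as KRT5 with KRT14 and KRT1 with KRT10, and other members are made in the hair shaft and in the inner root sheath around it. Fibroblasts, which are mesenchymal cells, build their filaments mainly from vimentin. H3K4me3, the trimethylation of lysine 4 of histone H3, marks the starts of active or poised genes. H3K27ac, the acetylation of lysine 27 of the same histone, marks active promoters and enhancers. CTCF is a zinc finger protein that binds DNA at a long motif and takes part in the folding of chromosomes into loops and domains.

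The keratin genes were followed in untreated pig embryonic fibroblasts (PEFs), which came from Large White fetuses of 35 days and were cultured for 24 h. They were defined as the protein-coding genes of the RefSeq annotation of the pig assembly Sscrofa11.1 with a symbol of KRT and a number, or with a description that opens with the words keratin, type. This gave 59 of the 19487 protein-coding genes on chromosomes 1 to 18 and X, of which 29 are type I and 30 type II. 35 carry a KRT symbol and 24 are unnamed entries with a LOC identifier. By the keratin that the description names, 4 are keratins of simple epithelia, 23 of stratified epithelia, 20 of hair and 8 of the inner root sheath, and 4 others were kept apart (KRT23, KRT80, KRT222 and LOC100737030, described as keratin 42). KRT7, another keratin of simple epithelia, is annotated as a long noncoding RNA and LOC106507259, described as like keratin 6A, as a transcribed pseudogene, so neither was a member.

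The data are 6 lists of peaks from chromatin immunoprecipitation with sequencing (ChIP-seq), with 2 replicates each of H3K4me3 (antibody ab8580), H3K27ac (ab4729) and CTCF (A1133). All 6 libraries belong to the same untreated cells, so no condition was compared. The labels do not say whether the replicates came from separate cultures or fetuses, and their difference may be technical. Each list gives the fold enrichment of a peak over a control at its summit. With the lists alone, the sequencing depth is unknown and a missing peak means only that none was called. On chromosomes 1 to 18 and X the lists held 37495 and 43075 H3K4me3 peaks, 74448 and 80531 H3K27ac peaks, and 39854 and 44209 CTCF peaks in replicates 1 and 2. With 2 libraries per mark no test could pass a threshold, so counts and fold enrichments are given for both replicates beside those of all protein-coding genes, without p-values.

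Few keratin genes carried a peak at their start. A gene was counted when any base of a peak lay within 1 kb of its transcription start site (TSS). H3K4me3 was present in both replicates at 5 of the 59 keratin genes (8.47%), against 68.9% of all protein-coding genes. H3K27ac was present in both at 2 keratin genes (3.39%), against 60.7%, and CTCF at 4 (6.78%), against 17.9%. 50 of the 59 (84.7%) had no peak of any of the marks in any of the 6 libraries, compared with 26.1% of protein-coding genes. The keratins with peaks were members of simple epithelia (KRT8, KRT18 and KRT19), hair keratins of type II (LOC100621844, LOC100621639, LOC100523123 and LOC100523670), KRT80 and KRT222. None of the 23 keratins of stratified epithelia and none of the 8 of the inner root sheath had a peak of any mark within 1 kb of the TSS, including KRT5, LOC110255312 (keratin 14), KRT1 and KRT10.

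**Figure D1:**
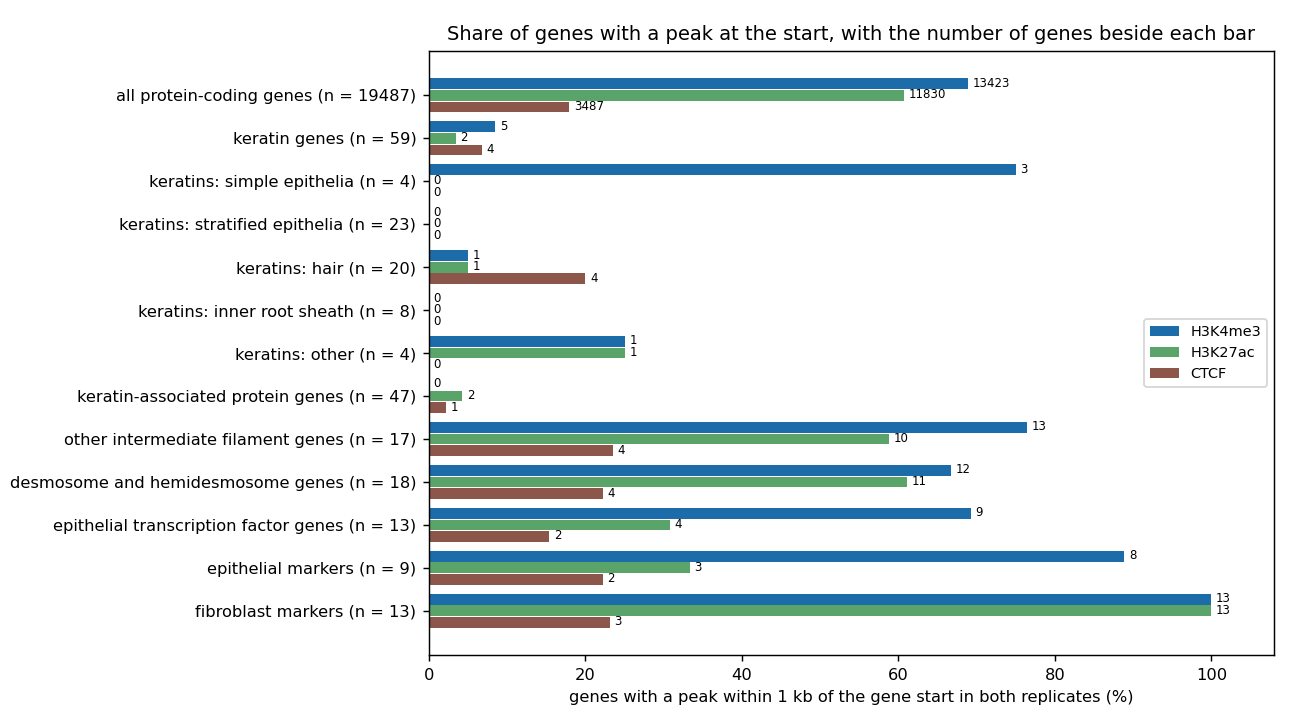
Percent of genes with a peak within 1 kb of the TSS in both replicates for each mark, for the 59 keratin genes, the lists of other genes and all 19487 protein-coding genes. The keratins stand at 8.47% for H3K4me3, 3.39% for H3K27ac and 6.78% for CTCF, and all protein-coding genes at 68.9%, 60.7% and 17.9%.

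The distance from the TSS to the nearest peak summit gave the same picture. For H3K4me3 the median over the keratin genes was 41.9 kb in replicate 1 and 41.8 kb in replicate 2, against 0.621 and 0.873 kb over all protein-coding genes. For H3K27ac it was 59.8 and 52.7 kb, against 0.831 and 0.732 kb. CTCF lay closer, at 15.6 and 17.4 kb, against 10.4 and 8.77 kb. The keratins were thus far from both histone marks, whereas their distance from CTCF differed from that of other genes by a factor of less than 2.

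Among the keratins of simple epithelia, KRT8, KRT18 and KRT19 had H3K4me3 in both replicates and H3K27ac in neither, and KRT20, which is made in the intestinal epithelium, had no peak. KRT19, the smallest keratin and one that lacks most of the tail domain, had the strongest H3K4me3 of the group. Its fold enrichment was 12.6 in replicate 1 and 10.6 in replicate 2, with summits 300 and 538 bp downstream of the TSS in the gene body. At KRT18, the type I partner of KRT8, the fold was 9.29 and 5.67, with summits 198 and 73 bp downstream. KRT8 had the weakest peak of the group, with a fold of 7.65 and 3.94. Its peak did not cover the TSS: the nearest edge lay 911 and 896 bp and the summit 1203 and 1330 bp downstream, within an intron. Counted by the summit, KRT8 therefore falls outside the limit of 1 kb.

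These peaks were weak for gene starts. The median fold of the H3K4me3 peaks within 1 kb of protein-coding genes was 52.0 in replicate 1 and 25.2 in replicate 2. KRT19 stood at percentile 6.27 and 9.44 of those genes, KRT18 at 4.50 and 3.73, and KRT8 at 3.63 and 1.47. H3K27ac at the start was also less common among genes with H3K4me3 peaks of this size. It was present in both replicates at 85.5% of the 13423 protein-coding genes with H3K4me3 in both, but at 28.9% (160) of the 554 genes whose mean H3K4me3 fold lay between that of KRT8 (5.80) and that of KRT19 (11.6). KRT19 had H3K27ac farther upstream. Shared regions had their middles at -1792, -8977 and -11975 bp relative to the TSS, with folds of 3.35 and 3.67, 5.02 and 5.14, and 6.88 and 6.36. The nearest H3K27ac summit lay 24.2 and 21.6 kb from the TSS of KRT8, and 37.6 and 12.8 kb from that of KRT18.

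The 200 bases upstream of these starts are shown because the genes differ in the short promoter elements found there (Sscrofa11.1, sequence of the RefSeq assembly, 5′ to 3′ on the strand of the gene, ending at the base before the TSS). Capitals mark the TATA box TATAAA and the GC box GGGCGG, which were searched on both strands together with CCAAT and the AP-1 site TGANTCA, and no 2 matches overlapped.
KRT18 chr5:18217486-18217685, forward strand: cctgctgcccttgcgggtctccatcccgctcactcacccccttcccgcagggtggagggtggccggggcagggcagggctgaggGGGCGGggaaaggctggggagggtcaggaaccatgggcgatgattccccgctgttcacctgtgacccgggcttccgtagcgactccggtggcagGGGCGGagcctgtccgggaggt
KRT8 chr5:18180278-18180477, reverse strand: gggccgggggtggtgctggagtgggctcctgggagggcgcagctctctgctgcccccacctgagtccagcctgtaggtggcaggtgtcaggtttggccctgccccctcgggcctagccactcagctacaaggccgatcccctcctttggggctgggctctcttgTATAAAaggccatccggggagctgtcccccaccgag
KRT19 chr12:21115253-21115452, forward strand: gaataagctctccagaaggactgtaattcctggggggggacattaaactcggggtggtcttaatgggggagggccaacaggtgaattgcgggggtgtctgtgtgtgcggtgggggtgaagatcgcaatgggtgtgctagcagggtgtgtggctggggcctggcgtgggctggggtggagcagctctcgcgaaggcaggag
KRT18 had 2 GC boxes, which began 116 and 22 bases upstream of the TSS, and KRT8 had a TATA box that began 36 bases upstream. KRT19 had no match to any of the 4 elements in this stretch. The GC content was 71.0% at KRT18, 67.5% at KRT8 and 61.0% at KRT19, and the number of CpG dinucleotides was 13, 6 and 7. A match says only that these letters are present.

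KRT80 and LOC100621844 were the keratins with both histone marks within 1 kb of the TSS. KRT80, a type II keratin found in many epithelia and the first gene of the type II cluster, had H3K4me3 with a fold of 13.996 in replicate 1 and 7.56 in replicate 2, at percentile 7.03 and 5.84. The peak lay inside the gene, with its nearest edge 486 and 503 bp and its summit 938 and 1024 bp downstream of the TSS. H3K27ac within 1 kb of the TSS of KRT80 had a fold of 9.13 and 12.3 (percentile 19.9 and 26.3). It did not cover the TSS either, with its nearest edge 503 and 514 bp and its summit 858 and 986 bp downstream. KRT222, the last gene of the type I cluster, had H3K4me3 in replicate 2 only, at a fold of 4.22, and no other peak.

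LOC100621844 is annotated as a hair keratin (type II microfibrillar, component 7C-like) on the reverse strand of chromosome 5 (chr5:17571935-17580009). It carried all 3 marks in both replicates, with the strongest H3K4me3 and CTCF peaks of any keratin start. The H3K4me3 fold was 36.6 and 19.97, at percentile 24.6 and 29.9, with summits at -172 and -188 bp relative to the TSS. The H3K27ac fold was 9.64 and 11.95 and the CTCF fold 31.5 and 34.2, the latter at percentile 83.7 and 81.7 of the gene starts with CTCF. No other hair keratin start had a histone peak: 19 of the 20 had neither H3K4me3 nor H3K27ac within 1 kb. The sequence before its TSS is shown with the GC box in capitals.
LOC100621844 chr5:17580010-17580209, reverse strand: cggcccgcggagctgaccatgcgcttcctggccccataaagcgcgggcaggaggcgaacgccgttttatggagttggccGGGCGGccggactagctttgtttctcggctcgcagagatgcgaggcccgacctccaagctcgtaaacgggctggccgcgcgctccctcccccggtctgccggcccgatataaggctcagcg
It holds 25 CpG dinucleotides in 200 bases, more than the other printed starts, and a GC box that begins 121 bases upstream. Part of this start is repeated elsewhere: 77.7% of the 50-base words and 83.6% of the 150-base words within 1 kb of the TSS occur once in the assembly. Its identity is that of the annotation, and no RNA was measured here.

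**Figure D2:**
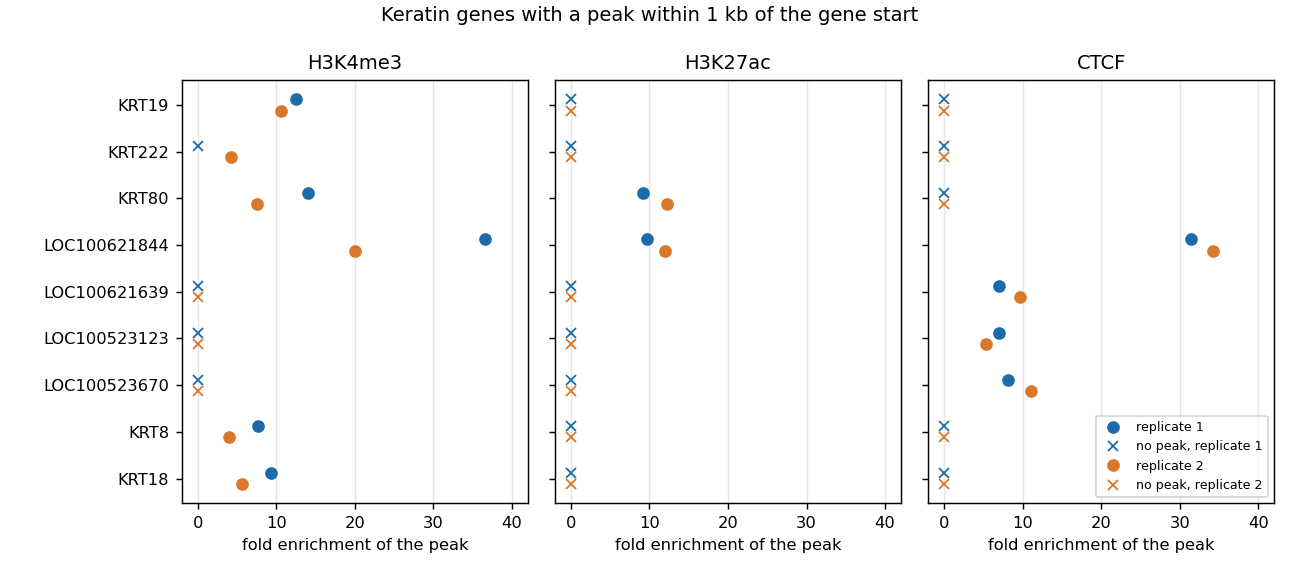
Fold enrichment over control of the peaks within 1 kb of the TSS of the 9 keratin genes with any peak, in both replicates of each mark. LOC100621844 has the highest H3K4me3 (36.6 and 19.97) and CTCF (31.5 and 34.2), and KRT8, KRT18 and KRT19 have H3K4me3 alone.

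CpG content was high at some of the marked starts and at some without a mark. Over the 1 kb centred on the TSS, the ratio of observed to expected CpG had a median of 0.375 over the keratins (range 0.222 to 0.821), against 0.655 over all protein-coding genes, 0.751 over those with H3K4me3 in both replicates and 0.271 over those with none. A ratio above 0.6 was found at 6 of the 59 keratins (10.2%) and at 55.7% of all genes. Of the 5 keratins with H3K4me3, LOC100621844 (0.821) and KRT19 (0.753) had such a ratio, KRT18 (0.509) lay between, and KRT8 (0.353) and KRT80 (0.317) were below the median of the family. The other 54 had a median of 0.374, and 4 of them lay above 0.6. These were KRT10 (0.661), KRT27 (0.658), LOC100524022 (0.608) and LOC106507258 (0.601), which had no H3K4me3 peak within 1 kb of the TSS. CpG ratio and H3K4me3 thus went together at only some of the marked keratins.

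**Figure D3:**
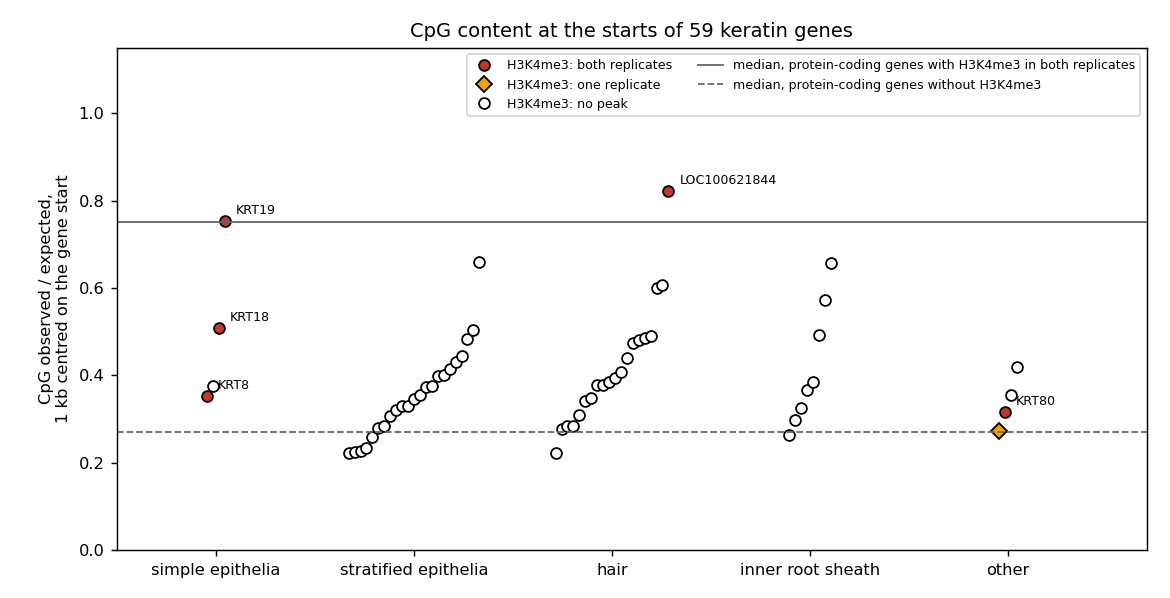
Ratio of observed to expected CpG in the 1 kb centred on the TSS for each keratin gene, beside all protein-coding genes with and without H3K4me3. The keratins lie mostly near the genes without H3K4me3 (median 0.271), and LOC100621844 and KRT19 lie near the median of those with it (0.751).

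The elements before the starts differed in the same sense. In the 250 bases upstream, TATAAA occurred on either strand at 20 of the 59 keratins (33.9%), compared with 9.64% of all protein-coding genes and 17.5% of those without H3K4me3. GGGCGG occurred at 10 (16.9%), compared with 46.0% of all genes. CCAAT was about as common at keratins (20, 33.9%) as elsewhere (31.8%), but was found at 11 of the 20 hair keratins (55.0%). TGANTCA, the site of the AP-1 factors, was found at 6 keratins (10.2%), all of type I, and at 5.27% of all genes. These shares are descriptions of a window and were not tested.

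All 59 keratins lay in 2 clusters, with 28 genes in the type I cluster and 31 in the type II cluster. The type I cluster spans 765 kb of chromosome 12 (chr12:21014182-21778893) from LOC100737030 to KRT222, and all its keratins lie on the forward strand. It also holds 21 genes of keratin-associated proteins, the matrix proteins of hair. The type II cluster spans 739 kb of chromosome 5 (chr5:17482454-18221432) from KRT80 to KRT18, with 5 keratins forward and 26 reverse. Protein-coding starts were dense in both, at 64.1 and 43.3 per Mb against 8.15 per Mb over chromosomes 1 to 18 and X.

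H3K27ac peaks were sparser in both clusters than on their chromosomes and over chromosomes 1 to 18 and X (31.1 and 33.7 per Mb). The type I cluster held 13.1 H3K27ac peaks per Mb in replicate 1 and 14.4 in replicate 2, against 48.6 and 54.7 on the whole of chromosome 12, and the type II cluster held 16.2 in both replicates, against 37.04 and 40.2 on chromosome 5. H3K4me3 was sparser in the type I cluster (9.15 and 14.4 per Mb) than on chromosome 12 (32.5 and 33.4), which is rich in peaks. Over chromosomes 1 to 18 and X the density was 15.7 and 18.01, a smaller gap. The type II cluster had 20.3 and 21.7, against 18.3 and 21.5 on chromosome 5. CTCF peaks in the type I cluster (20.9 and 23.5 per Mb) were fewer than on chromosome 12 (26.9 and 29.5) and more than over chromosomes 1 to 18 and X (16.7 and 18.5). They were more frequent than on chromosome 5 in the type II cluster (31.1 and 28.4 against 18.5 and 20.5). In numbers, the type I cluster had 7 and 11 H3K4me3, 10 and 11 H3K27ac, and 16 and 18 CTCF peaks, and the type II cluster 15 and 16, 12 and 12, and 23 and 21.

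In the type II cluster H3K4me3 was gathered near both ends, and H3K27ac mostly near the KRT80 end. Regions were called shared where peaks of both replicates overlapped by at least 1 bp. Between the last shared histone region at the KRT80 end and the first one beyond KRT78 lay 545 kb (chr5:17601303-18146568) with no shared H3K4me3 or H3K27ac. This stretch holds 25 protein-coding starts, all of them keratins, from LOC100523123 to KRT78, and includes KRT5, KRT1, KRT2 and the keratin 6 genes. Over chromosomes 1 to 18 and X, 368 intervals without shared histone marks were at least as long, this one included, and 14 held at least as many protein-coding starts. When peaks of either replicate were counted, the longest such interval here measured 475 kb, with 21 keratin starts.

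At the KRT80 end, 4 keratins and KRT7 shared 119 kb with 8 shared H3K4me3, 8 shared H3K27ac and 7 shared CTCF regions. KRT7, the usual partner of KRT19 in ducts and glands, had no peak within 1 kb of its annotated start at chr5:17553192. Further into the gene it had H3K4me3 with a fold of 16.7 and 8.38 around 2586 bp downstream, in an exon. A broad H3K27ac region of 7519 bp around 13213 bp downstream had a fold of 29.8 and 30.3, the strongest H3K27ac of either cluster. At the other end, KRT8 and KRT18 shared 75 kb with 5 H3K4me3 regions, 1 H3K27ac region and 4 CTCF regions. The space between KRT78 and KRT8 held 3 of the H3K4me3 regions, with folds of 2.82 and 3.46, 9.56 and 8.88, and 12.7 and 7.85. The last of them was the one that overlapped H3K27ac (8.48 and 8.20).

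**Figure D4:**
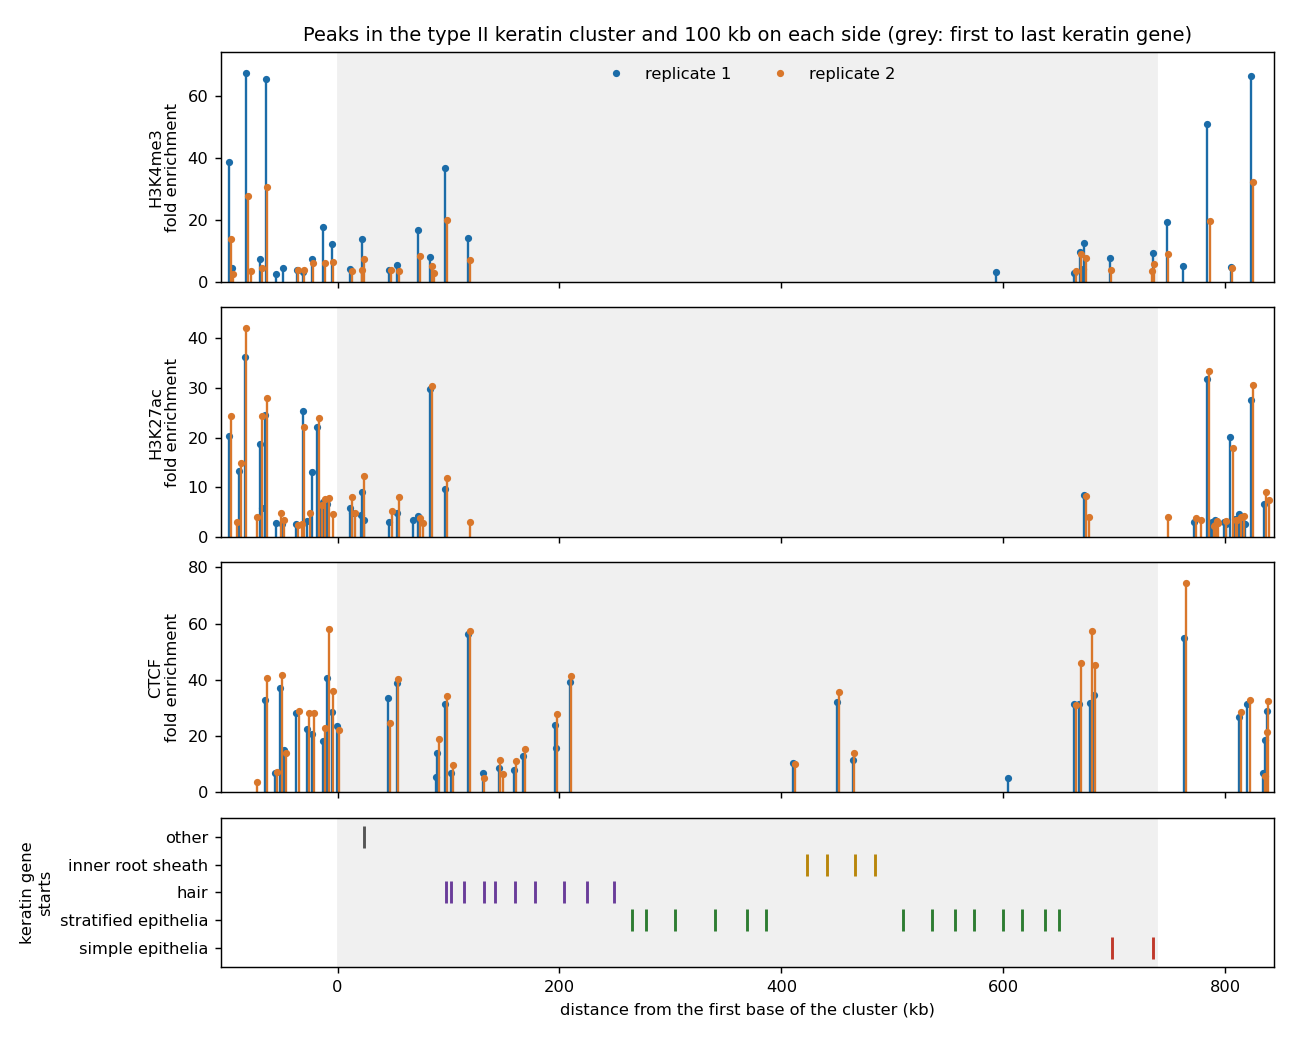
Map of the type II keratin cluster and 100 kb on each side, in kb from the cluster start. It shows the starts of the keratin genes and the peaks of each mark by fold enrichment in both replicates. Inside the cluster, H3K4me3 lies at the KRT80 and KRT8 ends, and H3K27ac lies mostly at the KRT80 end. A stretch of 545 kb between the ends has no shared histone region but holds CTCF peaks.

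In the type I cluster, most shared histone regions lay between its start and KRT19, and the others lay at KRT12 and KRT10. No shared histone region lay between KRT10 and the end of the cluster at KRT222. Its longest stretch without shared histone marks measured 487 kb (chr12:21117374-21604583) and held 36 protein-coding starts, 15 of them keratins from KRT15 to KRT12 and the remaining 21 of keratin-associated proteins. Of the intervals over chromosomes 1 to 18 and X, 457 were at least as long and 9 held at least as many starts, itself included in both. Weak peaks of single replicates broke this stretch. Counting peaks of either replicate, the longest interval measured 218 kb, with 2 keratin starts. The 103 kb before it, with 6 keratins from LOC100737030 to KRT19, held 4 H3K4me3, 7 H3K27ac and 4 CTCF shared regions, and the 174 kb after it, with 7 keratins, held 2, 1 and 6.

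KRT10, the partner of KRT1 in the upper epidermis, had the strongest H3K4me3 region inside either cluster, although not at its start. Its fold was 45.0 in replicate 1 and 38.3 in replicate 2, over a region of 3259 bp (chr12:21643165-21646423) that covered the 3′ part of the gene. H3K27ac overlapped it with a fold of 19.004 and 15.1, and CTCF with 11.6 and 9.68. The H3K4me3 summits lay 3.31 and 3.14 kb downstream of the TSS, beyond the 1 kb limit but within 5 kb. In the same part of the cluster KRT12, a keratin of the cornea, had a weak H3K4me3 region in an exon (3.55 and 3.94). Nearer the cluster start, LOC110255900, described as like keratin 16, was followed by H3K4me3 (15.1 and 9.84) and H3K27ac (2.85 and 5.52) about 4.7 kb beyond its TSS. A CTCF region (38.2 and 61.0) overlapped both. LOC100737030 had H3K27ac in an intron (6.59 and 9.80). LOC100515685, a transcribed pseudogene of the EKC/KEOPS subunit LAGE3 that lies among these keratins, was the one other gene in the cluster with H3K4me3 (17.1 and 15.8) and H3K27ac (18.4 and 13.2) at its start.

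**Figure D5:**
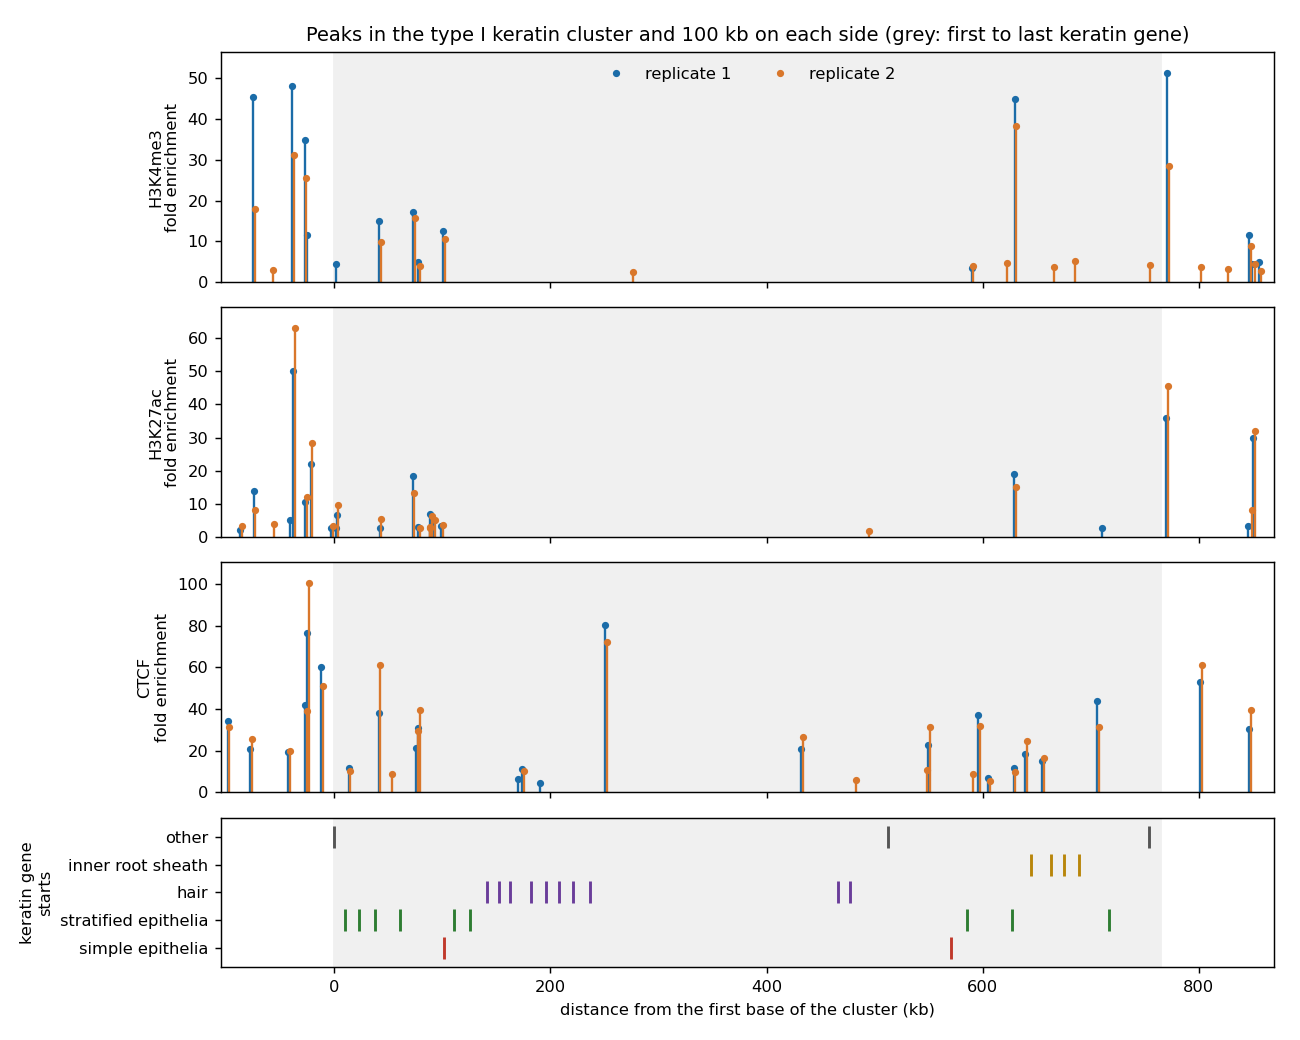
Map of the type I keratin cluster and 100 kb on each side, in kb from the cluster start. It shows the starts of the keratin genes and the peaks of each mark by fold enrichment in both replicates. Histone peaks lie around KRT19 and before it and at KRT10, while the hair keratins and keratin-associated protein genes between them have CTCF peaks and few weak histone peaks.

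Of the 12 genes that start within 100 kb of the cluster edges, 8 had H3K4me3 in both replicates, and of the 8 protein-coding ones 6, a share near that of all protein-coding genes (68.9%). Within 100 kb of the type I cluster, HAP1, which encodes a partner of huntingtin, had H3K4me3 with a fold of 45.5 and 17.9. EIF1, a translation initiation factor, had 48.1 and 31.3 with H3K27ac of 50.1 and 62.9. SMARCE1, a subunit of a chromatin remodelling complex that starts 5.5 kb from the cluster edge, had 51.3 and 28.6 with H3K27ac of 36.02 and 45.6. Around the type II cluster these genes were the unnamed LOC110260567 (4.37 and 2.71), NR4A1, a nuclear receptor annotated here as a pseudogene (67.4 and 27.8), ATG101, an autophagy factor (65.5 and 30.7), EIF4B, a translation factor annotated here as noncoding (51.0 and 19.8), and TNS2, a tensin of focal adhesions (66.3 and 32.3). Inside, 0 of the 21 other protein-coding genes of the type I cluster and 0 of 1 in the type II cluster had H3K4me3 in both replicates.

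CTCF gave 14 shared regions in the type I cluster, of which 11 lay between genes, and 20 in the type II cluster, of which 8 had their middle in an exon. 11 of the 14 and 14 of the 20 overlapped neither histone mark, as did 66.7% of the 37874 shared CTCF regions of chromosomes 1 to 18 and X. In the stretches without shared histone regions, CTCF regions were spaced at 8.21 per Mb (type I cluster) and 16.5 per Mb (type II cluster). The parts before and after had 38.8 and 34.4 per Mb in the type I cluster and 58.9 and 53.4 in the type II cluster. Over chromosomes 1 to 18 and X, CTCF peaks stood at 16.7 and 18.5 per Mb in replicates 1 and 2. Those values count peaks per library and not shared regions. A CTCF motif of 19 bp, learned from 600 strong peaks on other chromosomes, was found within 100 bp of the summit in 87.2% and 84.6% of the CTCF peaks of the clusters, and in 85.5% and 83.9% of all CTCF peaks. At 2 kb from all summits the share was 7.05% and 7.07%. The share in the clusters was thus near that of all peaks. Forward and reverse motifs were mixed, with 6 and 5 in the type I cluster and 10 and 8 in the type II cluster.

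The strongest sites with a motif are shown to let the letters be compared (Sscrofa11.1, RefSeq, strand of the motif, capitals mark the 19 bases of the match). They are the strongest of the type I cluster, the strongest within 100 kb before it and after the type II cluster, and the strongest with a motif in the type II cluster, ranked by the mean fold of the replicates.
Type I cluster, 251 kb from its start, chr12:21265542-21265570, forward strand: tgtggTGAACACTAGAGGCCGCCAgaaca
Type I flank, 24.5 kb before the cluster, chr12:20989682-20989710, forward strand: aaaaaAAGCCACCAGGTGGCAGCAgaggc
Type II flank, 763 kb from the cluster start, chr5:18245865-18245893, reverse strand: ctagaTGGCCACCAGGGGGCAGAGgtaga
Type II cluster, 679 kb from its start, chr5:18161839-18161867, reverse strand: tcagaTGTCCACTGGGGGGCAGCAgagga
The fold was 80.3 and 72.0 at the first, which lies between hair keratins and keratin-associated protein genes, 76.7 and 100.3 at the second, 54.9 and 74.3 at the third, beyond KRT18, and 31.8 and 57.2 at the fourth, between KRT78 and KRT8.

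The CTCF peaks at the starts of hair keratins shared their letters. LOC100621844, LOC100523123, LOC106507258 and LOC100523670 have the same 19 bases in their first coding exon, 144, 161, 159 and 181 bases from the TSS, and LOC100621639 has a copy with 2 differences at 631 bases. The shared 19 bases occur 4 times on chromosomes 1 to 18 and X, each time in one of these genes, and lie on the strand opposite to the gene. They are shown with 5 bases on each side, capitals marking the match.
LOC100621844 chr5:17579842-17579870: gagatGCCCCGGTAGGGGGCGGCCgagat
LOC100621639 chr5:17585710-17585738: gagacGCCTCGGTAGGGGGCAGCCgtgat
LOC100523123 chr5:17613877-17613905: gagatGCCCCGGTAGGGGGCGGCCgtgat
LOC106507258 chr5:17624250-17624278: gagatGCCCCGGTAGGGGGCGGCCgtgat
LOC100523670 chr5:17642514-17642542: gagatGCCCCGGTAGGGGGCGGCCgagat
The CTCF fold over the match was 31.5 and 34.2 at LOC100621844, 8.15 and 11.08 at LOC100523670, and 6.98 and 5.28 at LOC100523123. LOC106507258 has the identical 19 bases and no CTCF peak in either replicate. LOC100621639, with the changed copy, had 7.03 and 9.71. The same bases were therefore present with folds that differed more than 3 times between genes in both replicates, and once with no peak. LOC100621844 had 2 motif matches within 1 kb of its TSS, and the other genes shown had 1 each. Its CTCF summits lay 79 and 72 bases downstream of the TSS, before the shared match at 144 bases. The summits lay 124 and 81 bases downstream at LOC100523123 and 152 and 172 at LOC100523670. Whether the shared bases or other sequence underlie these peaks was not tested.

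Reads that map to copies are kept only when their place is unique, so uniqueness was measured around each copy. Within 250 bp of the match, 60.0% of the 50-base words at LOC100621844 occur once in the assembly, 48.9% at LOC100523123, 59.8% at LOC106507258, 50.9% at LOC100523670 and 99.6% at LOC100621639. For 150-base words the shares were 84.1%, 67.3%, 100%, 67.3% and 100%. How far unequal mapping sets these folds was not tested. At least one motif match lay within 1 kb of the TSS at 47 of the 59 keratins (79.7%) and at 69.2% of all protein-coding genes, and 4 of the 59 had a CTCF peak there.

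Copies also limit the other absences. Within 1 kb of the TSS, the share of 50-base words that occur once in the assembly had a median of 97.7% over the keratins, and 15 of the 59 (25.4%) were below 90%, compared with 9.49% of a sample of every 10th protein-coding gene. With 150-base words 7 of the 59 (11.9%) were below 90%, compared with 4.62%. The lowest was LOC100737483 (keratin 6A), at 11.7% and 27.5%, followed in 50-base words by LOC110260665 (42.9%), KRT6A (52.7%), LOC110255312 (keratin 14, 57.1%) and LOC110255272 (like keratin 14, 58.7%). How far this bears on the lack of peaks at those starts was not tested. The keratins of simple epithelia were not affected, with 98.4% or more.

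The cells carried the marks of fibroblasts. All 13 fibroblast markers of a fixed list, among them COL1A1, PDGFRA and THY1, had both H3K4me3 and H3K27ac in both replicates at the start. Their mean H3K4me3 fold ranged from 4.25 at FN1 to 58.0 at THY1. VIM, the gene of vimentin, had an H3K4me3 fold of 39.1 and 45.9 and an H3K27ac fold of 46.6 and 41.2. Of 9 epithelial markers, 8 had H3K4me3 in both replicates, with mean folds from 5.29 to 31.6, and 3 had H3K27ac in both, beside 68.9% and 60.7% of all protein-coding genes. 5 of these 9 had H3K4me3 in both replicates and H3K27ac in neither, as had KRT8, KRT18 and KRT19. Among all 19487 protein-coding genes, 13423 had H3K4me3 in both, and 1608 of these had H3K27ac in neither. Of the 4 mesothelial markers found, 3 had H3K4me3 and none H3K27ac in both replicates. The 4 endothelial markers had no peak of any mark. The 3 blood markers had no H3K4me3, and one of them, SPI1, had H3K27ac (12.4 and 16.98). HAND1 was the one of 3 trophoblast markers with H3K4me3 (7.60 and 5.63). Whether epithelial or mesothelial cells in the cultures had a part in the simple keratin peaks was not tested, and a few cells with a strong mark cannot be told apart here from many with a weak one.

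The lists of other filament, junction and epithelial transcription factor genes had shares of H3K4me3 near that of protein-coding genes as a whole. Of all protein-coding genes, 68.9% had H3K4me3 and 60.7% H3K27ac in both replicates. Of 17 other intermediate filament genes, 13 (76.5%) had H3K4me3 in both replicates and 10 (58.8%) had H3K27ac in both, with mean H3K4me3 folds from 7.46 at DES, the desmin gene of muscle, to 50.2 at LMNB2, which encodes a lamin. Of 18 genes of desmosomes and hemidesmosomes, the junctions that anchor keratin filaments, 12 (66.7%) had H3K4me3 and 11 (61.1%) H3K27ac in both. JUP, the gene of plakoglobin, had the strongest H3K4me3 of that list (85.5 and 34.4), while DSP, which encodes the desmoplakin that binds the filaments, had H3K4me3 (27.1 and 13.1) and no H3K27ac. Among the desmosomal cadherins and plakophilins known from stratified epithelia, DSG1, DSG3 and DSC1 had neither mark, DSC3 had H3K4me3 (37.9 and 30.7) and H3K27ac (8.70 and 11.5), and PKP1 had H3K4me3 only (12.02 and 7.64). Of 13 transcription factor genes of epithelia, 9 (69.2%) had H3K4me3 and 4 (30.8%) H3K27ac in both replicates. 6 had H3K4me3 in both and H3K27ac in neither, including GRHL2 (5.84 and 4.74) and GRHL3 (6.56 and 3.89). The same state was found at 1608 of all 19487 protein-coding genes. TP63, the factor of basal epithelial cells, had no H3K4me3 and a weak H3K27ac peak in replicate 1 (2.18).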

How the data were processed

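Peak lists of H3K4me3, H3K27ac and CTCF in PEFs were used, with 2 replicates each, and groups and replicate numbers were taken from the sample labels. Reads were mapped by the authors with bowtie2. Only fragments placed uniquely were kept, Picard was used to drop duplicates, and MACS2 called narrow peaks library by library against a control. Versions are not given in the sources used here, and the processing notes name Sscrofa11.1. The deposited lists give a score, a fold enrichment (a ratio to the control at the summit), and the −log10 of the p-value and of the q-value. The stated q-value was 0.01, whereas the highest value in the deposited lists was 0.0432 to 0.0499, and between 0.0565% and 3.06% of the peaks of a library exceeded 0.01. The lists were used as deposited. The 2 input samples were not analysed here.

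Gene starts came from the RefSeq annotation of Sscrofa11.1, the build of the lists, and no peak ran past a chromosome end. Peaks were assigned to a TSS within 1 kb of any base and to a cluster by summit. Clusters were chains of keratin genes with gaps of at most 500 kb. Regions were shared where replicates overlapped by 1 bp. The motif was learned by expectation maximisation and called at a p-value of 0.0001 for a match at one position. Python 3.11.15, pandas 2.3.3, NumPy 2.4.6, numba 0.67.0, pysam 0.24.0 and matplotlib 3.10.9 were used, and the matching, motif and uniqueness steps were tested on simulated data. The lists hold no read counts, so the depth is unknown and no intervals are given. All keratins with a peak at the start in any library were named with their values, as were flanking genes with H3K4me3 in both replicates. Members and gene lists were chosen with earlier results of these data known. Regions inside the clusters and genes of the lists were named after their values were seen. Alternatives were a distance of 5 kb or to the summit, flanks of 50 kb, a −log10 q of 2 or 5, an overlap of 50%, a motif p of 1e-05 and each replicate alone.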

Additional observations from a re-analysis of the deposited data

How the results depend on the processing

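No paired analysis was possible because no result comes from a test: all libraries belong to one group of cells, and marks were counted, not compared between groups. Of 112 alternative values for the comparisons, 97 stayed within 1.5 times the value reported or, for the motif share, within the spread between replicates (1 SD). A distance of 5 kb raised the keratins with H3K4me3 in both replicates from 5 to 10. Those with H3K27ac rose from 2 to 7 and those with CTCF from 4 to 11. At 5 kb the shares of all protein-coding genes were 74.7% for H3K4me3, 66.9% for H3K27ac and 35.0% for CTCF. Counted by the summit within 1 kb, H3K4me3 was left at 3 keratins, without KRT8 and KRT80 in both replicates. The share of all protein-coding genes counted this way was 52.2%. At a −log10 q of at least 5, the mean number of H3K27ac peaks per library fell from 10.5 to 5.5 in the type I cluster. Flanks of 50 kb, which hold less sequence, gave 4 H3K4me3, 5.5 H3K27ac and 5 CTCF peaks at the type I cluster and 8, 13.5 and 8 at the type II cluster, where H3K27ac also fell to 22.5 at a −log10 q of 5 and to 18 with an overlap of 50%. A motif p of 1e-05 lowered the share of cluster CTCF peaks with a motif from 85.9% to 70.5%. Taking either replicate alone gave 5 to 6 keratins with H3K4me3, 2 with H3K27ac and 4 with CTCF. The peak lists give no depth, so weak peaks such as those of KRT8, KRT12 and KRT222 and the absence of peaks at repeated starts are the least certain values.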

Other observations

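Keratin-associated proteins form the matrix between keratin filaments of the hair shaft, and 47 of their genes were found on chromosomes 1 to 18 and X. None had H3K4me3 within 1 kb of the TSS, whereas 68.9% of all protein-coding genes had it in both replicates. No peak of any mark was found at 44 (93.6%), against 26.1% of all protein-coding genes. How far the sequence at these starts is repeated in the assembly was not measured. The 21 that lie in the type I keratin cluster, between hair keratins, were all without a peak. The 3 with a peak lie on chromosome 13 and were named after their values were seen. LOC100625464 (protein 27-1) had H3K27ac with a fold of 4.45 and 5.03, LOC100626483 (protein 7-1) had H3K27ac of 3.999 and 5.50, and LOC100622426 (like protein 10-7) had CTCF of 6.98 and 11.3.

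Another pair of identical CTCF matches was seen under CTCF peaks inside hair keratins. LOC100621844 holds a copy around 6706 bases downstream of its TSS, with a CTCF fold of 14.2 and 19.2. LOC106507258 holds a copy around 4259 bases downstream, with 8.73 and 11.6. Further copies without a peak were not searched for, and uniqueness around this pair was not measured. LOC106507258 thus had CTCF at this match and none at the shared 19 bases in its first exon. The strongest CTCF region of the type II cluster, at the 3′ end of LOC100621024, had a fold of 56.4 and 57.5 without a motif match within 100 bp of its summits. 12.8 kb beyond the TSS of KRT18, an H3K4me3 region with a fold of 19.4 and 8.88 overlapped no CTCF and no shared H3K27ac region. A weak H3K27ac peak of replicate 2 lay there, with a fold of 4.06.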
